A study of Mus musculus with 2 samples.

Results

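Smooth-muscle contractile genes were followed across the cells of the mouse anorectal junction, before and after wounding. The 7 genes Acta2, Actg2, Myh11, Myl9, Tagln, Cnn1 and Tpm2 were taken out of the 31054 genes of the normal library and the 32285 genes of the wounded library. They were chosen by their measured UMI levels in these same cells, so every level given here by cell group is a description and carries no test.

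Cells came from the anorectal junction of K17CreERT2;R26RGFP mice on a C57/BL6J background, in which the Krt17 promoter drives a tamoxifen-inducible Cre that switches on GFP. All mice had received 2 tamoxifen injections. The normal library held unwounded tissue, and the wounded library held cells taken 1 week after an EDTA wound, which strips rectal crypts next to the transition zone (TZ) and for which the methods give mice 2 to 4 months old. At least 5 mice were pooled for cell sorting on GFP and on Epcam, a surface protein of most epithelial cells, and the stated gate for epithelial cells excluded CD45, CD11b, CD31 and PDGFRa. Each condition is 1 library, so the values compare 2 libraries and not the conditions. In the deposited tables, 939 normal cells were named Anal Canal, Basal, Suprabasal or Rectum, and 4147 wounded cells were named Basal, Suprabasal, Regeneration, Wound_Stress, Rectum or Hybrid. A further 610 normal and 1078 wounded cells passed the same quality filters without having a name, and the study's methods state that anal gland, hair follicle and fibroblast clusters had been taken out. For the normal sample the methods also describe a filter on Lgr5, Lhx2 and Tbx1, needed to take hair follicle cells out of the basal cluster. Cells without a name are called unlisted cells here, which gives 12 cell groups in all.

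Smooth muscle shortens when myosin II filaments pull on actin filaments, and the switch is phosphorylation of the myosin light chain by myosin light chain kinase. Smooth muscle has its own versions of the actins, of the myosin chains and of the proteins that coat the thin filament, and many of these genes carry CArG boxes, the binding motif of serum response factor. Acta2, Tagln and Myl9 are also used by myofibroblasts and by some epithelial cells, whereas Myh11, Cnn1 and Actg2 are the members tied most closely to differentiated smooth muscle. In the gut wall these genes mark the muscle layers, the anal sphincter, the muscularis mucosae and the mural cells around vessels.

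The 250 bases before the RefSeq start were at hand for 4 of the 7 genes, on assembly GRCm38.p6, and are shown because the members were high together in the unlisted cells and CArG boxes are a known feature of such genes. Capitals mark matches to the CArG box, on either strand, with at most 1 mismatch.
Acta2, chr19:34255374-34255623, minus strand: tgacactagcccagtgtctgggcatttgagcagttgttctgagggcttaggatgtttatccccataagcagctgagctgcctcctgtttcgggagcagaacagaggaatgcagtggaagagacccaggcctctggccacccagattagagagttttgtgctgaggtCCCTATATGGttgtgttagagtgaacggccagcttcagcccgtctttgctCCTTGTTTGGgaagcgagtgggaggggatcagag
Myl9, chr2:156775214-156775463, plus strand: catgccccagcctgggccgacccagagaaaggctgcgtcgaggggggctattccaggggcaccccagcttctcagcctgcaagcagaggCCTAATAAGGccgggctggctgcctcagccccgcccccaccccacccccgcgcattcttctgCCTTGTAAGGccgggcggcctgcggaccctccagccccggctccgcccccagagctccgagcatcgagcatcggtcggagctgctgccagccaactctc
Cnn1, chr9:22099003-22099252, plus strand: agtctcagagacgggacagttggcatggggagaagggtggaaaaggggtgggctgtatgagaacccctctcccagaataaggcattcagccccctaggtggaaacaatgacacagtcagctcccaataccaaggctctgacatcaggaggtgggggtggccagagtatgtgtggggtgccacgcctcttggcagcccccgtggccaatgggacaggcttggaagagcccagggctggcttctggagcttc
Tpm2, chr4:43523555-43523804, minus strand: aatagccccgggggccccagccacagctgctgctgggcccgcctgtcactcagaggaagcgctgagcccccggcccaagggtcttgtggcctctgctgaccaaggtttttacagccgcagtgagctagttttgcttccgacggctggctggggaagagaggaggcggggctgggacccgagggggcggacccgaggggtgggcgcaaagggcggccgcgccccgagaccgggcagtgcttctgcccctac
Myl9 held an exact CArG box that begins 161 bases before the start, CCTAATAAGG, and a match with 1 mismatch that begins at 99 bases, CCTTGTAAGG. In Acta2 there were 2 matches with 1 mismatch, CCCTATATGG beginning at 84 bases and CCTTGTTTGG at 34 bases. No match was present in these windows of Cnn1 and Tpm2. Over 32851 promoters of the same length, 1.47% held an exact box and 18.6% held a match with at most 1 mismatch. A match with at most 1 mismatch is thus a common feature of promoters, while an exact box is not.

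The normal library had 17617944 UMIs (unique molecular identifiers, each standing for 1 captured mRNA) over 2564 barcodes and the wounded library 88260050 UMIs over 17216 barcodes. Median depth was 9724 UMIs for named and 9041 for unlisted normal cells, and 10077 and 9897 for wounded cells. Over the 12 groups it ran from 2390 UMIs in Hybrid to 12616 in Regeneration cells. Levels are UMIs of a gene per 1000000 UMIs of the group (CPM), with 95% exact Poisson intervals in brackets. These intervals and the limits given for 0 UMIs, set at 3 UMIs, cover counting error only. Levels are set side by side between cell groups and not between genes. The actins have nearly the same coding sequences, and how well the 3′ reads told them apart was not tested.

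Nearly all of the contractile UMIs, Tpm2 aside, lay outside the named cells. Without Tpm2, the unlisted cells held 94.3% of the 6 genes' UMIs among filtered normal cells and 94.9% among wounded cells. In the normal library 6 of the 7 genes were at least 2-fold higher in unlisted than in named cells, where 13.6% of all genes with enough UMIs were. In the wounded library it was again 6 of 7, where 14.3% of genes were. In the normal library Cnn1, Myh11 and Actg2 had enough UMIs only through the unlisted cells. Tpm2 was the exception in both, with log2 ratios of 0.16 [0.09 to 0.23] and 0.78 [0.75 to 0.82]. The named cells thus held a small part of the UMIs of the other 6 genes. Without cells holding a UMI of the fibroblast, mural or endothelial marker lists, the log2 ratio of the 6 genes together went from 4.79 to 0.47 in the normal and from 6.09 to 2.33 in the wounded library, and Tpm2 turned to -0.75 and -0.96.

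**Figure D1:**
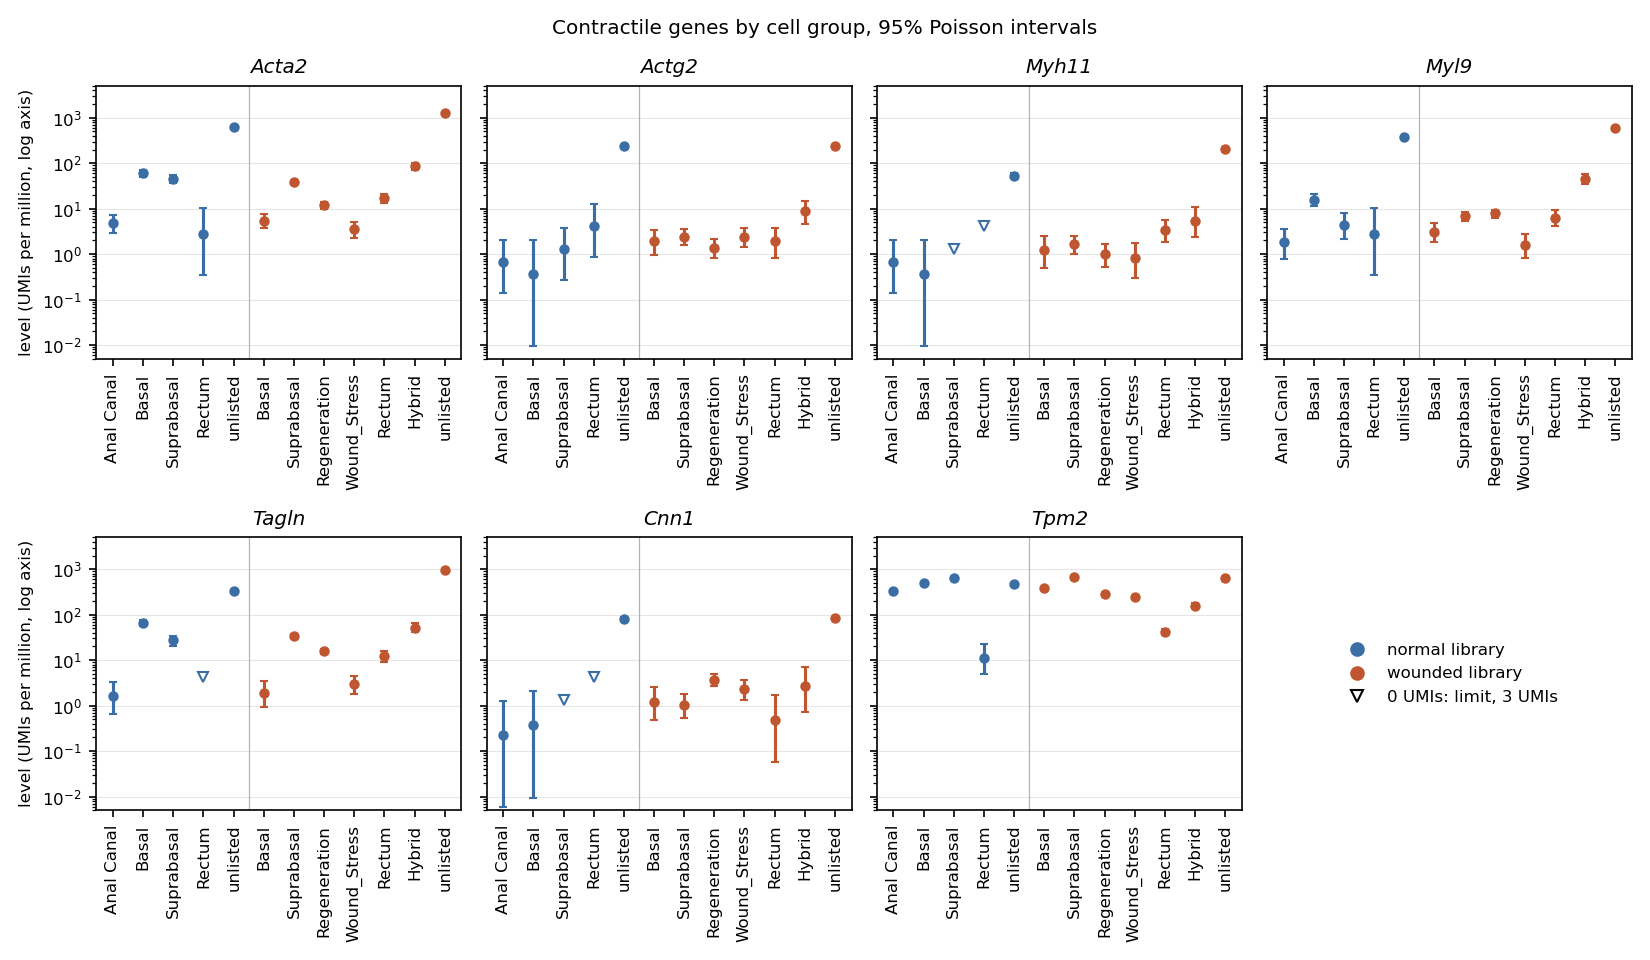
Level of each contractile gene in the 12 cell groups, in CPM on a log axis, with 95% Poisson intervals; blue points are normal and orange points wounded groups, and open triangles mark the limit of 3 UMIs where none was seen. The unlisted groups stand highest for 6 genes, with Acta2 at 611 and 1287 CPM, while Tpm2 lies between 244 and 681 CPM in the named stratified groups and is lowest in normal Rectum at 11.4 CPM.

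Acta2 encodes smooth muscle alpha-actin, the thin filament actin of vascular smooth muscle and myofibroblasts, and lies on chromosome 19 (mm10, 34241090 to 34255590, minus strand). It was highest in unlisted cells, at 1287 CPM [1266 to 1307] in the wounded and 611 CPM [591 to 631] in the normal library. Named cells came far below.

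Among the named groups Acta2 stood at 86.3 CPM [72.0 to 103] in wounded Hybrid cells. Normal Basal cells were at 59.9 [51.0 to 69.9], normal Suprabasal at 45.6 [37.2 to 55.2] and wounded Suprabasal at 37.8 [34.4 to 41.6], and each of these neighbours had overlapping intervals. A lower tier held wounded Rectum at 17.0 and Regeneration at 11.8 CPM, again with overlapping intervals. The lowest tier held wounded Basal at 5.40, normal Anal Canal at 4.79, Wound_Stress at 3.48 and normal Rectum at 2.84 CPM, which could not be ordered. The same name thus sat in the middle tier in 1 library and in the lowest in the other, for Basal.

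A UMI of Acta2 was seen in 57 of 257 normal Basal cells (22.2%) and 30 of 187 normal Suprabasal cells (16.0%), but in 19 of 432 Anal Canal cells (4.4%). With every cell thinned to 2000 UMIs, the shares were 8.24% in Basal, 4.37% in Suprabasal and 0.504% in Anal Canal cells. In the Rectum cells 0 of 60 thinned cells had one, so that shares up to 5% are possible. The Basal and Suprabasal shares were thus above that of Anal Canal cells at equal depth, and normal Rectum had too few cells to tell. No named group is known to be free of the gene, since wounded Rectum cells had it in 9.07% of cells (4.52% after thinning).

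Few cells carried much of it. In normal Basal the richest cell had 17 Acta2 UMIs and the 5 richest cells held 35.8% of the group's total, and in normal Suprabasal the 5 richest held 51.9%. In the unlisted normal cells the richest had 820 UMIs.

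Actg2 encodes smooth muscle gamma-actin, the actin of visceral smooth muscle such as the gut wall (chromosome 6, 83512905 to 83536265, minus strand). It stood at 237 CPM in the unlisted cells of both libraries. In named cells it was at the edge of detection, with 1 UMI in normal Basal, 3 in normal Suprabasal, 3 in Anal Canal and 3 in normal Rectum cells. The highest named level was 8.77 CPM [4.67 to 15.0] in Hybrid cells, from 13 UMIs, and all other named groups lay between 0.370 and 4.26 CPM with intervals that overlap from each neighbour to the next. Of the 1418 Actg2 UMIs in unlisted normal cells, 5 cells held 86.4%. Without the 5 cells richest in the members the unlisted level was 33.1 CPM in the normal and 116 CPM in the wounded library, so the shared value of 237 CPM rests on few cells.

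Myh11 encodes the smooth muscle myosin heavy chain, the motor itself and the most specific of the set (chromosome 16, 14194535 to 14291372, minus strand). Its level was 207 CPM [199 to 215] in wounded and 53.3 CPM [47.6 to 59.5] in normal unlisted cells. Normal Basal cells held 1 Myh11 UMI among all 257 cells. No UMI was found in normal Suprabasal and Rectum cells, which allows up to 1.31 and 4.26 CPM. Every other named group lay between 0.685 and 5.39 CPM, the upper value being that of Hybrid cells.

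Myl9 encodes the regulatory light chain of smooth muscle and non-muscle myosin II, whose phosphorylation starts contraction (chromosome 2, 156775420 to 156781658, plus strand). Unlisted cells had 603 CPM [589 to 617] in the wounded and 369 CPM [354 to 385] in the normal library. Hybrid cells followed with 45.9 CPM [35.6 to 58.1] and normal Basal cells with 15.5 CPM [11.2 to 21.0]. The remaining 8 named groups ran from 7.84 CPM in Regeneration down to 1.61 CPM in Wound_Stress, each overlapping its neighbour. Normal Basal cells were thus the second of the named groups for Myl9, and normal Suprabasal cells, at 4.38 CPM, lay within the low groups.

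Tagln encodes transgelin (SM22-alpha), an actin-bundling protein and an early marker of the smooth muscle programme (chromosome 9, 45929619 to 45936058, minus strand). In unlisted cells it was at 984 CPM [966 to 1002] after wounding and 339 CPM [324 to 354] in the normal library. Its order among named cells was close to that of Acta2, with normal Basal at 65.8 CPM [56.5 to 76.2] and Hybrid at 51.9 [41.0 to 64.9], which overlapped. Wounded Suprabasal at 34.6 and normal Suprabasal at 27.2 CPM overlapped as well, as did Regeneration at 15.6 and wounded Rectum at 12.2 CPM. Wound_Stress, wounded Basal and Anal Canal cells had 2.95, 1.92 and 1.60 CPM, and no UMI was seen in normal Rectum, which allows up to 4.26 CPM. After thinning, 10.2% of normal Basal cells had a Tagln UMI (18.7% before) against 0.504% of Anal Canal cells (1.62% before).

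Cnn1 encodes calponin 1, a thin filament protein that slows the actomyosin cycle and a late smooth muscle marker (chromosome 9, 22099216 to 22109630, plus strand). Unlisted cells of the wounded and normal libraries had overlapping intervals, at 83.8 CPM [78.6 to 89.1] and 81.5 CPM [74.4 to 89.1]. In the normal library 5 cells held 74.4% of these UMIs, and without the 5 cells richest in the members the levels were 48.7 and 22.1 CPM. In the named normal cells the gene had 2 UMIs in all. After wounding its highest named level was in Regeneration cells, at 3.69 CPM [2.72 to 4.89] from 48 UMIs in 30 of 991 cells, an interval that overlapped those of Hybrid and Wound_Stress cells. Of these 48 UMIs, 47 were in cells that fell into a single rebuilt cluster led by Cxcl1, Egr4 and Fosl1, at 4.5 CPM. That cluster took in 846 of the 991 Regeneration cells, so the count does not place the UMIs in a small part of the group.

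Tpm2 encodes beta-tropomyosin, which lies along actin filaments in smooth and skeletal muscle and also in many other cells (chromosome 4, 43514711 to 43523765, minus strand). It had another pattern than the other 6 genes. The highest level was in a named group, wounded Suprabasal, at 681 CPM [666 to 696], followed by wounded unlisted cells at 636 and normal Suprabasal cells at 630 CPM, which overlapped. Normal Basal cells were at 508 CPM [481 to 535] and unlisted normal cells at 474 [457 to 492], also overlapping.

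Below these, every step was larger than the counting error: wounded Basal 379, Anal Canal 331, Regeneration 286, Wound_Stress 244, Hybrid 157, wounded Rectum 41.6 and normal Rectum 11.4 CPM. Among the named groups Tpm2 was thus high in stratified cells in general and low in the columnar Rectum groups. Within the unlisted cells Tpm2 was higher still in some rebuilt clusters. It stood at 7843 CPM in the normal mural-like, 822 in the normal fibroblast-like and 2303 in the wounded fibroblast-like cluster. Tpm2 was found in 94.1% of normal Suprabasal and 92.2% of normal Basal cells, or 71.0% and 61.2% after thinning, against 9.52% and 1.67% of normal Rectum cells. In normal Basal cells it was not held by few cells, since the 5 richest carried 6.99% of the group's Tpm2 UMIs, against 35.8% for Acta2. In unlisted normal cells the 5 richest carried 29.3%, and the mural-like cluster held 1387 of the 2840 Tpm2 UMIs.

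The makeup of the contractile UMIs differed between groups. Actg2, Myh11 and Cnn1 together made up 22.0% [21.2 to 22.8] of the 10123 UMIs of the 6 genes in unlisted normal cells, and 15.5% [15.2 to 15.9] of 40363 in unlisted wounded cells (exact binomial intervals). In normal Basal cells they were 0.779% [0.161 to 2.26] of 385 UMIs, and in normal Suprabasal cells 1.68% [0.347 to 4.82] of 179. Both intervals lie wholly below that of the pooled unlisted cells. The barcodes that failed the quality filters had 26.8% [20.3 to 34.2] of 168 UMIs in the normal library. The pooled unlisted value was set by a mural-like cluster of 28 cells, where the share was 24.6%. In the unlisted fibroblast-like cluster it was 1.54% [0.796 to 2.67] of 781 UMIs, an interval that overlaps those of Basal and Suprabasal cells.

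Anal Canal cells, at 16.3% [6.81 to 30.7] of 43 UMIs, had intervals reaching both the unlisted cells and the failed barcodes. In the wounded library the share was 6.05% [4.64 to 7.74] in Suprabasal and 8.39% [5.50 to 12.1] in Hybrid cells, below the 15.5% of unlisted cells and the 25.2% [23.9 to 26.5] of failed barcodes. It was 14.7% in Regeneration and 14.1% in Rectum cells, whose intervals include the unlisted value. Wounded Basal at 29.4% [20 to 40.3] and Wound_Stress at 40.6% [30.9 to 50.8] were above it, with 85 and 101 UMIs.

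**Figure D2:**
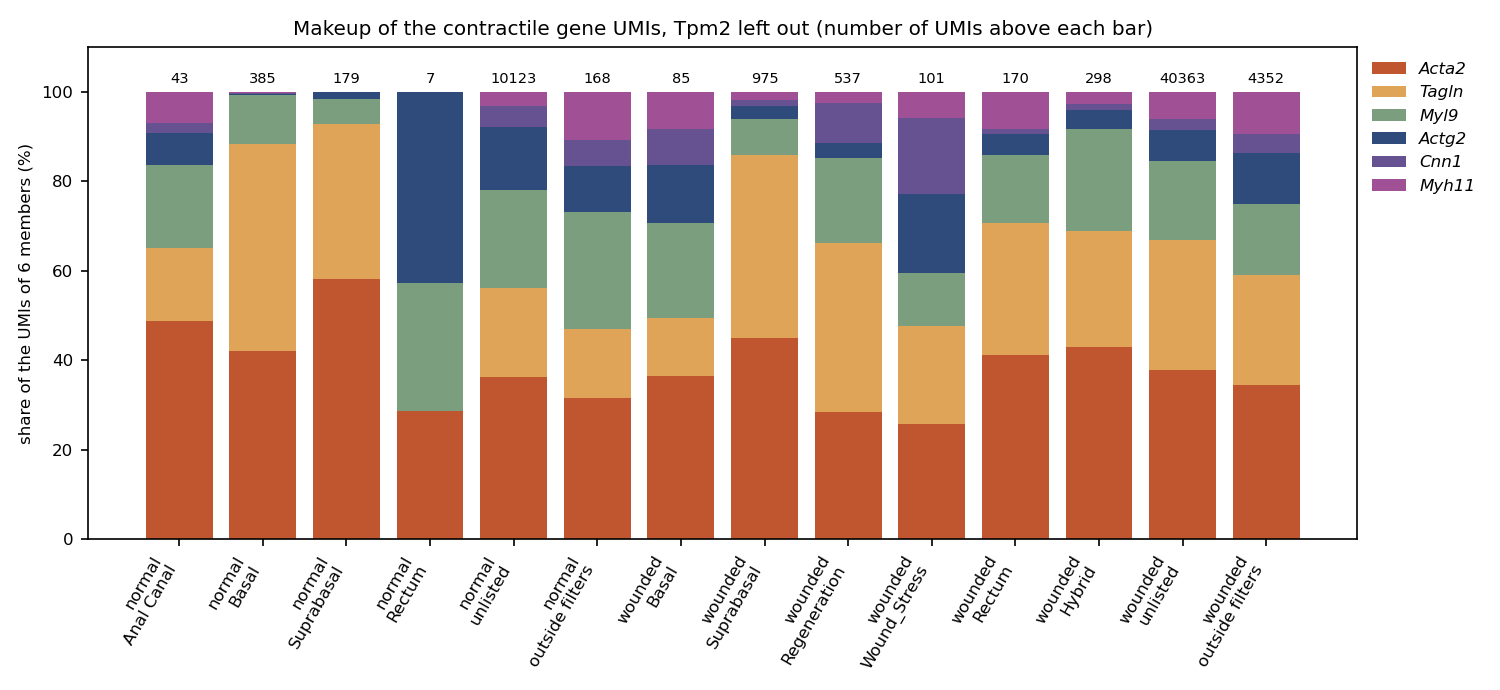
Share of each gene, in percent, among the UMIs of 6 contractile genes (Tpm2 left out) in the 12 cell groups and in the barcodes outside the filters, with the number of UMIs above each bar. Acta2, Tagln and Myl9 fill nearly the whole bar in normal Basal and Suprabasal cells, where the other 3 genes make up 0.779% and 1.68%, against 22.0% in unlisted normal cells.

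To see which unlisted cells held the genes, all filtered cells of each library were clustered again, with the contractile genes kept out of the genes used for clustering. In the normal library a mural-like cluster of 28 cells, all unlisted, carried 81.7% of the UMIs of the 6 genes. There Acta2 was at 17670 CPM, Tagln at 10099, Myl9 at 9635, Actg2 at 7803, Cnn1 at 2669 and Myh11 at 1719 CPM, and the mural marker list, led in unlisted cells by Rgs5, summed to 2895 CPM. A fibroblast-like cluster of 36 unlisted cells had Acta2 at 1843 and Myl9 at 1395 CPM but Tagln at 314, Myh11 at 32.3 and Cnn1 at 0. The full set of 7 was thus found together at high level in the mural-like cells, and Acta2 and Myl9 without Cnn1 in the fibroblast-like cells. The leading genes of the mural-like cluster were Actg2, Des, Cnn1, Rgs5 and Myh11. No marker list for visceral smooth muscle was among those used, so the name does not tell mural cells from muscle of the gut wall. With finer clustering (resolution 0.4) the mural-like cells joined other unlisted cells in a cluster of 44 that was named endothelial-like and held the same 81.7% of the UMIs.

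In the wounded library 84.1% of the UMIs sat in a fibroblast-like cluster of 288 cells, all unlisted, with Acta2 at 6188, Tagln at 4381, Myl9 at 2787, Myh11 at 1007, Actg2 at 997 and Cnn1 at 355 CPM. Its mural list also summed to 1369 CPM, so the cells of the normal mural-like and fibroblast-like kinds were not separated there. Fibroblasts carry PDGFRa and endothelial cells CD31, which the stated gate excludes, yet fibroblast-like clusters were present in both libraries and an endothelial-like cluster in the wounded one, and Pdgfra was among the leading genes of the normal fibroblast-like cluster. Stromal clusters (mural-like, fibroblast-like and endothelial-like) in all held 89.0% of the UMIs in 64 normal cells, or 4.13% of filtered cells, and 84.2% in 383 wounded cells, or 7.33%. In a library, fewer cells of a type and less RNA per cell cannot be told apart from these sums.

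Among the unlisted epithelial cells the hair follicle-like cluster of the normal library stood out. Its 189 cells had Tagln at 103, Myl9 at 107 and Acta2 at 31.8 CPM, with Myh11 at 0 of its UMIs, and Actg2, Myh11 and Cnn1 made up 2.05% [0.829 to 4.18] of the 6 genes. The share of these 3 genes was low as in normal Basal cells, while Myl9 was higher and Acta2 lower than there. The 359 anal gland-like cells had Acta2 at 12.3, Tagln at 4.04 and Myl9 at 9.65 CPM, and the same 3 genes made up 20%. In the wounded library a cluster led by Pyy, Insl5 and Ppy held 45 Hybrid cells and 181 unlisted cells, the latter with Tagln at 791 and Acta2 at 400 CPM. It met the rule for the name enteroendocrine-like, but the unlisted cells of the library had 17 UMIs of that list in all (1.43 CPM), against 2472 CPM in Hybrid cells, so the name is not used for the unlisted cells. At resolution 0.4 it split, and a hair follicle-like cluster of 183 cells, 171 of them unlisted, had Tagln at 695 and Acta2 at 388 CPM.

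**Figure D3:**
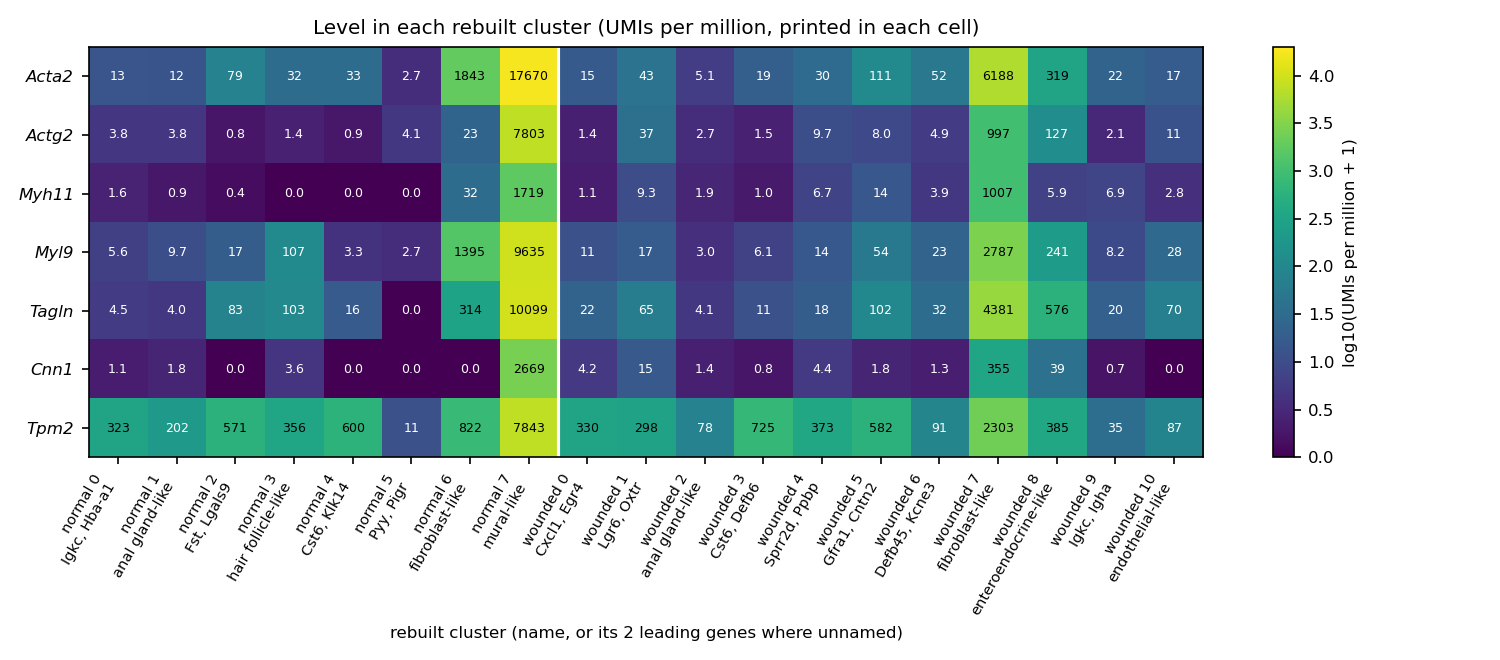
Level of each gene in every rebuilt cluster of both libraries, in CPM, printed in each cell and coloured on a log10 scale; clusters with no name are given by their leading genes. The mural-like cluster (Acta2 17670 CPM) and the fibroblast-like cluster of the wounded library (6188 CPM) stand out for all 7 genes.

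Within the named normal cells the squamous groups differed. Acta2, Tagln and Myl9 were higher in Basal and Suprabasal TZ cells together than in Anal Canal cells, by 3.48 [2.83 to 4.19], 4.91 [3.85 to 6.24] and 2.51 [1.43 to 3.80] on the log2 scale (95% binomial intervals of the ratio). Tpm2 was higher by 0.77 [0.68 to 0.86]. Of 4 members with at least 20 UMIs, 3 passed the fold of 2, where 9.97% of all genes were higher by that much. Tagln and Myl9 reached 20 UMIs through the TZ cells, so the count gives no support of its own. Cnn1, Myh11 and Actg2 had 1 to 4 UMIs on each side and no ratio is drawn from them.

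Rebuilt clusters placed this signal within the Basal name. The 220 Basal cells in a cluster led by Fst and Lgals9 had Acta2 at 72.9 CPM [62.0 to 85.2] and Tagln at 81.6 [70.1 to 94.6], whereas 27 Basal cells that fell into the anal gland-like cluster had Acta2 at 4.67 CPM from 2 UMIs and no Tagln. Of the cells with at least 3 of the 7 genes detected, 32 were in the first and 1 in the second.

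At least 3 of the 7 genes were detected together in 33 of 257 normal Basal cells (12.8%), 17 of 187 Suprabasal cells (9.09%), 4 of 432 Anal Canal cells and 0 of 63 Rectum cells, which allows up to 4.76%. After thinning to 2000 UMIs, 11 of 255 Basal and 2 of 183 Suprabasal cells remained. Before thinning, the 33 and 17 cells, picked for holding the members, carried 70.6% and 76.5% of their group's UMIs of the 6 genes. The stratified basal marker list (Krt5, Krt14, Krt15, Col17a1, Trp63, Itga6 and Itgb4) had a summed level of 11086 CPM in these 33 and 10975 CPM in the remaining Basal cells.

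Markers of other cell types were read beside them. In Basal cells, 14 of the 33 had no UMI of the fibroblast, mural or endothelial lists, against 128 of 224 other Basal cells, and in Suprabasal cells it was 3 of 17 against 56 of 170. In all normal Suprabasal cells Flt1 made up 182 of the 188 CPM of the endothelial list. Notch3 made up 37.7 of the 39.9 CPM of the mural list, so the list UMIs of this group were mostly of these genes. In Basal cells 11 of the 33 had a fibroblast list UMI, for a summed level of 57.1 CPM against 24.9 CPM in the other Basal cells. The endothelial list was at 48.1 against 16.9 CPM and the mural list at 27.1 against 29.5 CPM, and their part in the count was not tested. Across the whole normal Basal group 4 of 7 mural markers had UMIs, for 29.2 CPM led by Notch3 at 11.8, and Pdgfrb, Kcnj8 and Abcc9 were at 0. Of the fibroblast list 4 of 7 had UMIs, for 28.8 CPM led by Dcn at 26.2, and Lum, Pdgfra and Dpt were at 0. Median depth was 9946 UMIs in these cells and 9986 in the others. In Suprabasal cells depth did differ, at 14881 against 11107.5 UMIs, and the fibroblast list stood at 23.1 against 9.39 CPM. The part of either in the count was not tested.

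Tagln was detected in a larger share of cells with Acta2 than of cells without it in most groups. It was found in 22 of 57 normal Basal cells with Acta2 (38.6%) [26.0 to 52.4] but in 13.0% of those without. In normal Suprabasal cells it was 11 of 30 (36.7%) [19.9 to 56.1] against 7.01%. In the wounded Suprabasal group it was 45 of 157 (28.7%) against 8.57%, in Regeneration 18 of 75 (24.0%) against 5.02%, and in unlisted cells 266 of 332 (80.1%) against 10.6%. Among the cells with both genes, Cnn1, Myh11 or Actg2 was detected in 1 normal Basal cell of 22 and in 0 normal Suprabasal cells of 11, whereas it was detected in 33 of 48 unlisted normal cells. Wounded Basal cells with Acta2 held no Tagln in 25 cells. These shares come from cells that were not thinned, so the cells with and without Acta2 may differ in depth. The part of depth was not tested.

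**Figure D4:**
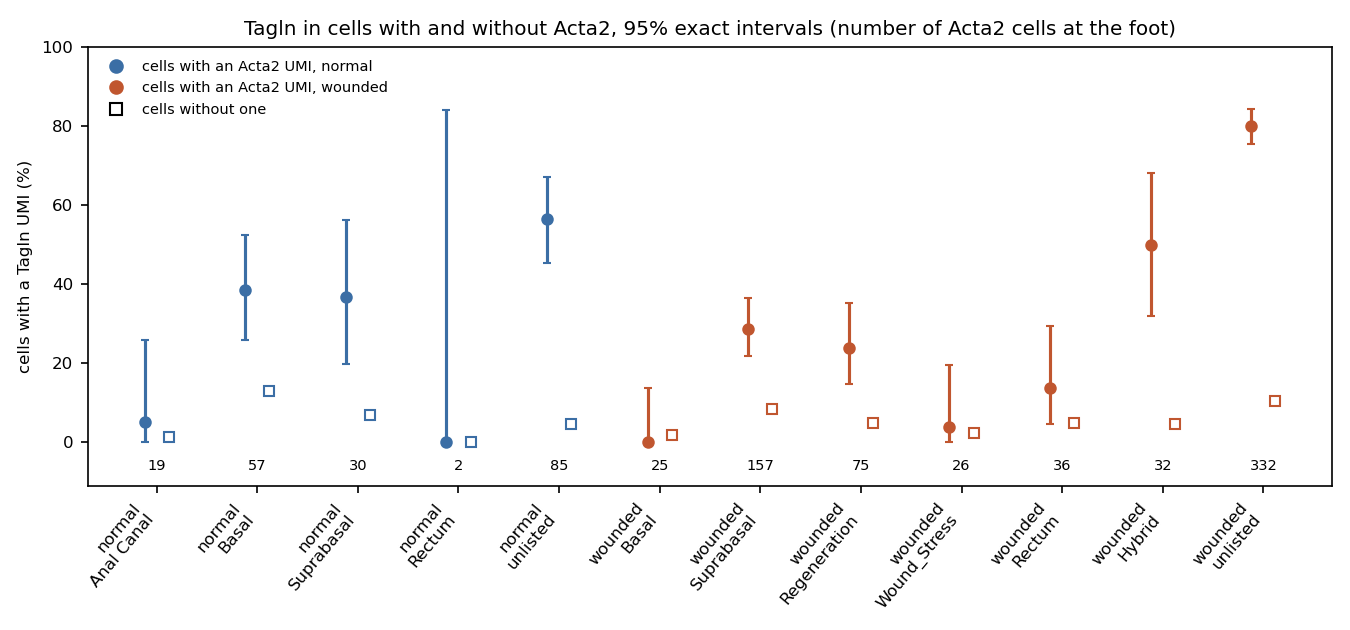
Share of cells with a Tagln UMI, in percent, among cells with an Acta2 UMI (filled points, 95% exact intervals, number of cells at the foot) and without one (open squares), in each cell group. The filled points lie above the open squares in normal Basal (38.6% against 13.0%), normal Suprabasal (36.7% against 7.01%) and Hybrid cells (50% against 4.58%). Cells were not thinned to equal depth, and the part of depth was not tested.

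After wounding, Hybrid cells were compared with the other named cells. Hybrid is the name of 316 cells, which were spread over rebuilt clusters with different leading genes. Of these, 70 fell into the Sprr2d cluster and 60 into the endothelial-like cluster, beside 34 unlisted cells. Clusters led by Lgr6 and Pyy took in 56 and 45, and those led by Cst6, Defb45 and Gfra1 took in 27, 24 and 22. Taking the name as a whole, 5 of the 7 genes were at least 2-fold higher there, where 17.2% of all genes were. Myl9 led with a log2 ratio of 3.02 [2.61 to 3.42], then Acta2 with 2.33 [2.05 to 2.61], Actg2 with 2.15 [1.18 to 3.0], Myh11 with 1.94 [0.66 to 3.01] and Tagln with 1.66 [1.31 to 2.01]. Tpm2 was lower, at -1.26 [-1.45 to -1.07], and the interval of Cnn1 included 0.

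The Hybrid signal sat in few cells. At least 3 members were detected in 19 Hybrid cells (6.01%), which held 82.9% of the group's UMIs of the 6 genes and had a median depth of 10967 UMIs against 2289 in the other Hybrid cells. Their fibroblast list level was 161 CPM, against 156 CPM in the remaining Hybrid cells. Both their stratified basal and their rectum list levels were higher, at 6262 against 2874 CPM and 1491 against 789 CPM. The 146 Hybrid cells with at least 10% mitochondrial UMIs held 90.3% of the contractile UMIs and 50.3% of all UMIs. Without them, the log2 ratio of Acta2 and Tagln together went from 2.04 to -0.34, so the direction rests on these cells. From the authors' deposited whole numbers it was 1.02, and without high Scrublet scores 1.30. A rebuilt cluster led by Defb45, Kcne3 and Muc3, most of whose cells were named Rectum, took in 24 Hybrid cells with 110 of the 128 Acta2 UMIs, at 542 CPM, and 15 of the 19 cells, and their median mitochondrial share was 19.2%.

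Suprabasal cells, 1032 in number, were the largest named group of the wounded library. Against the other named wounded cells 3 of 7 members were at least 2-fold higher, where 6.14% of all genes were, namely Tagln (log2 1.60 [1.39 to 1.81]), Acta2 (1.56 [1.36 to 1.76]) and Tpm2 (1.42 [1.37 to 1.46]). The interval of Myl9 included 0 (-0.08 [-0.47 to 0.30]), as did those of Myh11 and Actg2, and Cnn1 was lower (-1.24 [-2.26 to -0.36]). The 5 richest cells held 30.6% of the group's Acta2 and 28.5% of its Tagln UMIs, against 2.41% for Tpm2. The group fell into 2 main rebuilt clusters. The 415 cells led by Gfra1 and Cntn2 had Acta2 at 54.7, Tagln at 67.7 and Myl9 at 15.7 CPM, and the 515 cells led by Cst6 and Defb6 had 19.2, 7.99 and 0.533 CPM. Suprabasal cells with at least 10% mitochondrial UMIs held 48.7% of the UMIs of the 6 genes and 31.0% of all UMIs, and without them Tagln was at 22.1 in place of 34.6 CPM. Between the clusters Tpm2 went the other way, at 584 CPM in the first and 742 CPM in the second.

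In wounded Suprabasal cells 66 cells (6.4%) held at least 3 members, 14 of 1020 after thinning, and 40 of the 66 were in the Gfra1 cluster. In Regeneration cells the count was 40 of 991 (4.04%), 7 of 986 after thinning. No stromal list UMI was found in 28 of the 66 and 27 of the 40, against 490 of 966 other Suprabasal and 769 of 951 other Regeneration cells. In all wounded Suprabasal cells Flt1 made up 103 of the 105 CPM of the endothelial list and Notch3 27.3 of the 34.0 CPM of the mural list. Fibroblast list levels were 103 CPM in the 66 cells against 6.99 CPM in other Suprabasal cells, from UMIs in 16 of the 66, and 60.8 against 16.1 CPM in Regeneration, from 4 of the 40. Their part in the counts was not tested.

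The groups of the same name were then compared between the wounded and the normal library. In the cells named Basal, Acta2 was lower in the wounded library, with a log2 ratio of -3.47 [-4.07 to -2.91]. So were Tagln at -5.10 [-6.13 to -4.22] and Myl9 at -2.30 [-3.19 to -1.48]. Tpm2 was at -0.42 [-0.52 to -0.32]. This is 3 of 4 members with enough UMIs, where 13.5% of all genes were lower by a fold of 2, and Tagln and Myl9 had enough only through the normal group. The 2 groups are not alike beyond the name. Of the 573 wounded Basal cells, 552 fell into a rebuilt cluster led by Sprr2d, Ppbp and Psca, with Krt13 among its 5 leading genes. The normal cluster that holds 414 of the 432 Anal Canal cells was led by Igkc, Hba-a1 and Igha, followed by Ppbp and Krt13. The stratified suprabasal marker list (Krt1, Krt10, Krtdap, Sbsn, Lor and Dsg1a) stood at 7843 CPM in wounded Basal and 374 CPM in normal Basal cells. In normal Anal Canal cells it was at 8508 CPM. The stratified basal list was at 13189, 10989 and 18958 CPM in the same order. The condition and the meaning of the name cannot be told apart in this contrast. The extra filter against hair follicle cells was described for the normal sample, and its part was not tested.

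In Suprabasal cells 0 of 5 members were higher by a fold of 2 after wounding, where 16.2% of all genes were. Acta2 had a log2 ratio of -0.26 [-0.58 to 0.06], Tagln of 0.35 [-0.04 to 0.76] and Myl9 of 0.62 [-0.33 to 1.74]. Their intervals include 0 and leave room for changes below 2-fold for Acta2 and Tagln. Tpm2 was at 0.12 [0.04 to 0.20]. The 6 genes together, at 0.10, went to -0.43 in cells under 10% mitochondrial UMIs, to -0.47 without stromal UMIs and to 0.58 without the 5 richest cells, so no direction is given. In Suprabasal cells the stromal list UMIs were mostly of Flt1 and Notch3, so the value of -0.47 mainly leaves out cells with these genes.

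In Rectum cells the normal group had 63 cells. Over all genes 11.8% were higher after wounding by a fold of 2. The 4 members with 20 UMIs reached that number through the wounded group, so nothing is read from how many of them were higher. Acta2 had 70 UMIs against 2, a log2 ratio of 2.59 [0.68 to 5.66], and Tpm2 171 against 8, a log2 ratio of 1.88 [0.87 to 3.11]. Tagln had 50 UMIs against 0 and was at least 2.87-fold higher with 3 UMIs set for the normal group. The interval of Myl9, 1.16 [-0.84 to 4.28], includes 0. Of the wounded Acta2 UMIs 52.9% were in 5 cells and the fibroblast list stood at 246 CPM in wounded against 1.42 CPM in normal Rectum cells. Without cells holding a stromal list UMI, the log2 ratio of the 6 genes together went from 2.06 to 0.81.

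In unlisted cells 3 of 7 members were higher after wounding, where 14.1% of all genes were. Myh11 was at 1.96 [1.79 to 2.13], Tagln at 1.54 [1.48 to 1.61] and Acta2 at 1.08 [1.03 to 1.13], with Myl9 at 0.71 and Tpm2 at 0.43. Cnn1 at 0.04 [-0.11 to 0.20] and Actg2 at 0.01 [-0.08 to 0.10] had intervals that include 0. Both rest on few cells. Without the 5 cells of each group richest in the members, Cnn1 stood at 22.1 CPM in normal and 48.7 CPM in wounded unlisted cells and Actg2 at 33.1 and 116 CPM, and the log2 ratio of the 6 genes together went from 1.01 to 1.78. The fibroblast list moved with these values, from 1084 to 3776 CPM, and the mural list from 118 to 305 CPM, so the cell mix of the unlisted cells was not the same in the 2 libraries. Stromal clusters held 64 normal and 322 wounded unlisted cells. Within them Acta2 went from 8958 to 5696 CPM, Tagln from 4713 to 4040 and Myl9 from 5099 to 2567. Cnn1 went from 1200 to 327, Actg2 from 3521 to 919 and Tpm2 from 3978 to 2121 CPM, while Myh11 rose from 791 to 927. Outside them the other 6 genes were higher in the wounded library, Acta2 at 127 against 24.1 CPM. There Tpm2 had overlapping intervals, at 245 [235 to 255] CPM in the wounded and 228 [216 to 241] CPM in the normal library. The pooled rise was not seen in the stromal sums, except for Myh11. These sums mix 28 mural-like and 36 fibroblast-like normal cells, and 288 fibroblast-like and 34 endothelial-like wounded cells. Between the fibroblast-like clusters each member was higher in the wounded library, Acta2 at 6188 against 1843 CPM. The wounded cluster also held mural markers, so cell mix and level cannot be told apart. The wounded stromal share, 84.2%, was 91.5% or 92.4% under other clustering settings.

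**Figure D5:**
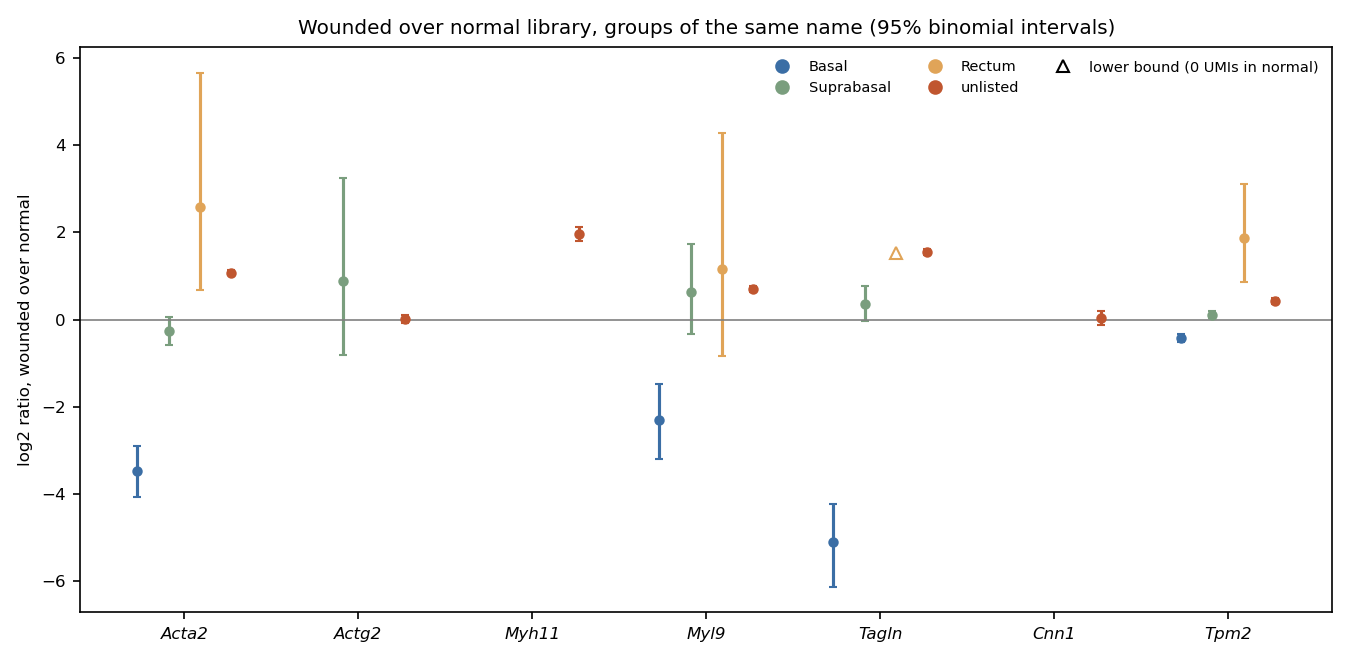
Log2 ratio of the wounded over the normal library for each contractile gene, in groups of the same name, with 95% binomial intervals; genes under 20 UMIs in the 2 groups together are left out and the open triangle is a lower bound. Acta2, Tagln and Myl9 lie below 0 in Basal cells (Tagln at -5.10) and the unlisted cells lie above 0 or, for Cnn1 and Actg2, at 0.04 and 0.01.

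Other genes of the contractile apparatus were read from 3 lists. Of 20 contractile partners, 14 were at least 2-fold higher in unlisted than in named normal cells, where 13.6% of all genes were. Des (desmin, the muscle intermediate filament, log2 ratio 7.88) and Mylk (myosin light chain kinase, 5.62) were foremost and Cnn2 was lowest at -0.02. In the wounded library 17 of 20 were, against 14.3% of all genes. Kcnmb1, a potassium channel subunit of smooth muscle, was at 7.33 and Des at 6.59. The non-muscle paralogs did not go with them, since 1 of 10 was higher in each library, Myh10 at 6.0 and 4.58. Of the regulators, Myocd, the cofactor that drives the smooth muscle programme through serum response factor, had no UMI in named wounded cells. Srf itself was 1.05 higher in unlisted normal cells and lower, at -1.04, in unlisted wounded cells.

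Between normal TZ and Anal Canal cells, 5 of 12 partners with enough UMIs were higher in Basal and Suprabasal cells, against 9.97% of all genes. Pdlim3 was at 5.70 and Cnn3 at 5.04. The 9 paralogs and 3 regulators that could be read gave 0 calls. Pdlim3 is an actinin-binding protein of the Z-line and Cnn3 the calponin of non-muscle cells. They were also the partners furthest down in wounded over normal cells named Basal, at -3.46 and -3.54. There 4 of 14 partners were lower and 2 higher, against 13.5% and 15.7% of all genes, and Srf was at -3.31. The 2 Basal groups differ in the stratified suprabasal list, so these values do not tell the condition from the meaning of the name. Srf was lower in the wounded library in other groups too, at -1.42 [-2.12 to -0.69] in Suprabasal and -3.02 [-3.47 to -2.58] in unlisted cells. In Rectum cells it was at -0.80 [-2.17 to 0.80], an interval that includes 0. The cause was not tested. In wounded Suprabasal against the other named cells, 8 of 19 partners were higher, Pdlim3 at 4.36 foremost, and 2 were lower, against 6.14% and 17.6% of all genes. In Hybrid cells 7 of 19 were higher, Des at 3.61 and Synpo2 at 3.38, and 2 lower, with Pdlim3 at -1.62, against 17.2% and 6.43% of all genes.

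After wounding, 5 of 16 partners in Suprabasal cells were at least 2-fold higher than in the normal library, where 16.2% of all genes were. Cald1 (caldesmon, a thin filament regulator) was at 2.76 and Itga8 at 2.12. In Rectum cells 4 of 13 were higher, against 11.8% of all genes, and in unlisted cells 7 of 20, against 14.1%. Both were led by Cald1, at 2.16 [0.90 to 3.81] and 1.81 [1.72 to 1.91]. The normal Rectum group had 63 cells, and the fibroblast list stood at 246 CPM in wounded against 1.42 CPM in normal Rectum cells. The part of that list in these calls was not tested. Cald1 was therefore the partner furthest up in all 3 of these contrasts. The non-muscle paralogs had 0 of 9 calls in Suprabasal and in Rectum cells and 2 of 10 in unlisted cells.

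Partners were also read in the cells with at least 3 members against the rest of their own group. These cells were picked for holding members and no share over all genes was computed for the split, so the values describe them only. In normal Basal and Suprabasal cells Cald1 had a log2 ratio of 1.61 [0.67 to 2.48], Cnn3 of 1.31 and Flna (filamin A, an actin crosslinker) of 1.17. In Regeneration Cald1 was at 2.71 [2.10 to 3.28] and Pdlim3 at 2.67 [2.07 to 3.22]. In wounded Suprabasal cells Mylk was at 2.98 [1.5 to 4.36] from 8 UMIs and Cald1 at 2.74. In Hybrid cells Pdlim3 was at 3.06 and Cnn3 at -1.92. These are the partners furthest out. In normal Basal and Suprabasal cells the median log2 ratio was 0.76 for partners and 0.54 for non-muscle paralogs. The same medians were 1.29 and 0.43 in Regeneration, 0.40 and 0.09 in wounded Suprabasal and 0.29 and 0.40 in Hybrid cells.

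The genes whose level was most like that of the 7 members together were sought among 7409 genes with at least 100 UMIs in the named cells of each library. Over the 10 named groups they were Klc3, Dsc3, Emp2, Trim29 and Crip2, with Pearson's r of 0.97 to 0.98 on log2(CPM + 10), and the sum followed Tpm2, whose own r was 0.98. Over all 12 groups they were Emc3, Tspan6, Axl, Wwtr1 and Vcp, at 0.92 to 0.94. Leaving out Tpm2, a choice made after seeing its weight, gave Cxxc5, Cxcl14, Gch1, Ddah2 and Rnf167 over the 10 groups, at 0.87 to 0.93, and Cxcl12, Serinc1, Cxcl14, Bgn and Aebp1 over 12, at 0.90 to 0.95. Cxcl14, a chemokine, went from 4.26 CPM in normal Rectum to 238 in normal Basal, 293 in Hybrid and 774 in unlisted wounded cells. The points share libraries and depth, and so these correlations describe the groups and carry no p-value.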

How the data were processed

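The authors sequenced droplet 3′ libraries and deposited UMI counts per gene and barcode, made with Cell Ranger 3.1.0 on mm10 per the submitters' processing notes, which also list Seurat 3.2.2, while the header of the wounded counts names Cell Ranger 4.0.0. The deposited table of named cells holds the natural log of a whole number plus 1 and gave the names. It was otherwise used as an alternative for levels. The cell groups, the 7 genes and all lists were chosen with earlier results of these data known.

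Cells with more than 200 and fewer than 5000 genes and under 25% mitochondrial UMIs were kept, which left 1548 normal and 5225 wounded cells; 1 named normal cell did not pass and was kept. One barcode sequence was present in both libraries, and 0 of the cells used. UMIs were summed per group, with exact 95% Poisson (levels), Clopper-Pearson (shares) and binomial (ratios) intervals and a floor of 3 UMIs. Ratios between libraries used the 30406 genes common to both. The libraries were counted on gene lists of different length, and the part of this in the ratios was not tested. A gene was called at a fold of 2 with at least 20 UMIs in the 2 groups together. For shares, cells were thinned to 2000 UMIs and shallower cells left out. No test between conditions was possible, each being 1 library.

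Clusters were rebuilt in Seurat 5.3.0 (R 4.3.3) from 2000 variable features without the contractile lists, 10 components and resolution 0.2, with cell-cycle scores regressed. A cluster was called X-like where a list had the highest median log2 ratio, above 1, with at least 3 markers raised 2-fold and seen in 10% of its cells and at least 1 among its top 10 genes. The names are rebuilt and need not match those of the study. Scrublet (scanpy 1.11.5) called 4 of 1548 and 0 of 5225 cells, so its calls were not used, and the 93 and 314 highest scores were left out as an alternative. Python 3.11.15, numpy 2.4.6, scipy 1.17.1 and matplotlib 3.10.9 did the rest. Genes named are the 7 members, the partners, regulators and paralogs with the largest or smallest ratios, the 5 genes most like the members, and markers beside a result. Gene positions are from GENCODE on mm10, promoters from RefSeq on GRCm38.p6. The ratio script was tested on simulated data. Alternatives were another scaling, the mean per cell, stricter mitochondrial limits, cells without stromal UMIs, other thinning depths, folds and resolutions.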

Additional observations from a re-analysis of the deposited data

Results flagged for a closer look

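The step from Basal to Suprabasal cells went opposite ways in the libraries for 3 genes. The log2 ratio of Suprabasal over Basal was -0.39 [-0.76 to -0.03] for Acta2 in the normal library (104 and 162 UMIs) and 2.81 [2.28 to 3.38] in the wounded library (438 and 31 UMIs). For Tagln it was -1.28 [-1.72 to -0.85] and 4.17 [3.32 to 5.19], and for Myl9 -1.83 [-2.99 to -0.81] and 1.10 [0.35 to 1.93]. With 1 library per condition the difference was not tested, and the cells named Basal fell into rebuilt clusters with different leading genes in the libraries. Their stratified suprabasal list stood at 374 CPM in the normal and 7843 CPM in the wounded library, so the step is not between like groups.

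Barcodes outside the quality filters also carried the genes. The members without Tpm2 stood there at 108 CPM [92.2 to 125] in the normal library, from 168 UMIs in 1015 barcodes, and at 132 CPM [128 to 136] in the wounded library, from 4352 UMIs in 11991 barcodes. What these barcodes are was not tested.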

How the results depend on the processing

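No paired analysis was possible because each condition is 1 library. Values are log2 ratios unless said otherwise. The 6 genes in unlisted over named cells, 4.79 in the normal and 6.09 in the wounded library, became 5.02 and 6.47 with the mean per cell and 0.47 and 2.33 without cells holding a stromal UMI. The wounded value was 6.37 under 10% mitochondrial UMIs, and the normal value 4.56 without high Scrublet scores and 4.07 without the 5 richest cells, an alternative added after seeing the data. Tpm2 in the same contrasts, 0.16 and 0.78, became 0.43 and 1.38 with the mean per cell, 0.086 and 0.69 under 10% mitochondrial UMIs, -0.75 and -0.96 without stromal UMIs, 0.042 and 0.68 without high Scrublet scores, and -0.30 and 0.55 without the 5 richest cells. Acta2 and Tagln in Hybrid cells, 2.04, became 1.53, -0.34, 2.75 and 1.30 under those settings in the same order, the richest cells aside, and 1.02 from the authors' whole numbers. Between libraries, the 6 genes in Suprabasal cells, 0.10, became -0.43 under 10% mitochondrial UMIs, -0.47 without stromal UMIs and 0.58 without the 5 richest cells. In Rectum cells 2.06 became 0.81 without stromal UMIs. In unlisted cells 1.01 became 1.25 with the mean per cell, 1.08 without mitochondrial UMIs, 1.12 under 10% of them, 1.5 without stromal UMIs, 1.06 both without high Scrublet scores and with median-of-ratios factors, and 1.78 without the 5 richest cells. Named cells with at least 3 members, 54 and 138, were 171 and 685 with at least 2, 9 and 34 with at least 4, and 13 and 32 after thinning. The stromal share, 89.0% and 84.2%, became 87.9% and 85.1% without high Scrublet scores, and in the wounded library 91.5% with the members among the variable features and 92.4% without cell-cycle regression. At a fold of 4, members called went from 4 to 1 in Rectum, 3 to 0 in unlisted (wounded over normal), 5 to 3 in Hybrid and 3 to 0 in wounded Suprabasal cells, and members lower from 1 to 0 in both of the last. With no minimum of UMIs, 3 members in place of 0 were higher in wounded Basal cells, each from 1 normal UMI. The Basal contrast between libraries (-3.26) and that of TZ over Anal Canal cells (3.99) did not move beyond their intervals under any alternative run. Of 79 levels above 0, 35 moved by over 1.5 times without stromal UMIs, 20 without the 5 richest cells, 19 with the mean per cell, 12 under 10% mitochondrial UMIs and 8 without high Scrublet scores. The causes were not tested.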
